A study of Mus musculus with 30 samples.

Results

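The response at 3 h was read from nascent RNA of a mouse embryonic stem cell line, called dTKO in the labels, by comparing 3 libraries made 3 h after the addition of auxin and dTAG13 with 3 libraries made at 0 h. These are 6 of the 15 libraries of a time course that also holds 12, 24 and 48 h, and each library was sequenced in 2 runs, so they stand for 12 of 30 deposited samples. The cells at 3 h and at 0 h share the labelled genotype Suv39h1fl/fl; Suv39h2-/-; Setdb1fl/fl, so SUV39H2 is lost in both. Auxin was given at 100 µg/ml and dTAG13 at 0.5 µM, both compounds together, and the baseline is the same line at 0 h. Both compounds mark a protein fused to a matching tag for breakdown; the labels do not say which protein carries which tag or whether the line is a single clone. No library here received a compound without tagged protein to act on, so an answer to the compounds and an early loss of silencing cannot be told apart by design.

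Methylation of lysine 9 on histone H3 is the mark of heterochromatin, and SETDB1 and the SUV39H enzymes are its main writers over silenced repeats. In mouse embryonic stem cells the mark is known for holding down endogenous retroviruses of the ERVK group, such as IAP and MMERVK10C, and SETDB1 also acts at germline genes. The aryl hydrocarbon receptor, AHR, is a transcription factor that is switched on by small aromatic molecules, moves to the nucleus, pairs with ARNT and turns on cytochrome P450 genes such as Cyp1a1, while AHRR, made from a target gene, damps it. TT-seq feeds cells 4-thiouridine for a few minutes and purifies the RNA that takes it up. It thus follows transcription over minutes rather than the RNA stored in the cell. By label, 4-thiouridine was given at 1 mM for 10 min, at 3 h and at 0 h alike.

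Depth was alike in the groups, from 37.6 to 39.4 M recovered reads at 3 h and from 37.6 to 39.5 M at 0 h. Values are scaled reads: the reads of a unit after each library was divided by its own size factor. A single read was worth 0.636 to 0.775 scaled reads at 3 h and 0.813 to 0.857 at 0 h. With it, the median change of the 15261 tested genes was -0.24 on the log2 scale, and it was 0.00 after each library was divided by its median ratio over genes, called rescaling here. Both values are therefore given where the call or the direction depends on it. All 10 embryonic stem cell markers were tested, and their summed signal was 14148 to 16173 at 3 h and 18534 to 20564 at 0 h, while 7 fibroblast markers summed to 199.8 to 227 at 3 h and 285 to 359 at 0 h. Replicate 2 at 0 h stood apart, with a chi-square per degree of freedom of 5.45 and 7.54 against the other libraries at 0 h, where no other pair within a group passed 2.14. Transcripts of the enzymes in the genotype label cannot show a loss of protein: Setdb1 averaged 799 ± 84.6 scaled reads at 3 h and 846 ± 24.9 at 0 h (SD, n = 3 each), and Suv39h1 averaged 442 ± 54.3 at 3 h and 483 ± 36.3 at 0 h. Suv39h2, deleted by label, still had 967 ± 86.5 at 3 h and 1091 ± 72.9 at 0 h, which counts reads over the whole gene and does not show the deletion. In bulk RNA, fewer cells that make a transcript and less transcript per cell cannot be told apart.

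A unit was called up or down when limma, fitted over all 15 libraries on log2(scaled reads + 1), gave a Benjamini-Hochberg adjusted p below 0.05. Of 15261 tested genes, 97 were called up (0.636%) and 2053 down (13.5%). After rescaling the calls were 760 up (4.98%) and 1241 down (8.13%), and all 97 genes called up were also called up then, as were 1235 of the 2053 called down. Both counts depended on single libraries. Leaving out replicate 1, 2 or 3 of 3 h gave 53, 70 or 72 genes up and 858, 419 or 2921 down, and leaving out replicate 1, 2 or 3 of 0 h gave 66, 65 or 67 up and 1241, 405 or 1100 down. Genes called up numbered 59 when the minimum mean of 10 was taken over the libraries at 0 h, 67 in edgeR and 51 in DESeq2. After rescaling the same 6 fits gave 905 to 1102 genes down and 533 to 635 up, so the rescaled change is given beside each falling gene, or as a range.

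Cyp1a1, a target of AHR, had the largest rise of all tested genes, and 3 other genes of the receptor's battery rose with it. Of 12 listed, 8 passed the minimum mean of 10 scaled reads, 4 were called up and 1 down, where 0.636% of all tested genes were called up and 13.5% down. The median log2 change of the list was 0.51 against -0.24 over all tested genes. Of the 8, 7 averaged 10 or more at 0 h, Cyp1a1 being the exception. Cyp1a1, the cytochrome P450 that is the standard readout of the receptor (chromosome 9, 57687928-57703824, plus strand), had 139.8, 129 and 133 scaled reads at 3 h, against 7.32, 6.65 and 4.29 at 0 h. Each library at 3 h was far above each at 0 h, with a log2 change of 4.28 (SE 0.24, adjusted p 2.4e-69 in limma). Cyp1b1, a related enzyme (chromosome 17, 79706953-79715041, minus strand), had 215, 231 and 219 scaled reads at 3 h, against 32.5, 34.1 and 41.1 at 0 h, a change of 2.60 (SE 0.16, adjusted p 4.76e-56 in limma). Ahrr, the repressor of the receptor (chromosome 13, 74211118-74292331, minus strand), had 145, 130.4 and 152 scaled reads at 3 h, against 50.4, 49.9 and 38.6 at 0 h, a change of 1.61 (SE 0.17, adjusted p 2.14e-17 in limma). Tiparp, an ADP-ribosyltransferase that also limits the receptor (chromosome 3, 65528447-65555518, plus strand), was already abundant, with 4131, 3988 and 4546 scaled reads at 3 h, against 2529, 2848 and 2604 at 0 h. Its change was smaller, 0.67 (SE 0.12, adjusted p 1.96e-05 in limma), and the groups did not overlap in any of these 4 genes, as was so, in this direction, for 0.891% of tested genes.

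The receptor gene itself moved the other way. Ahr had 762, 670.0 and 822 scaled reads at 3 h, against 945, 1117 and 970.4 at 0 h, all 3 libraries at 3 h below all at 0 h, with a change of -0.43 (SE 0.13, adjusted p 0.0119 in limma). Such a separation downward was common on the deposited scale, found in 8166 of 15261 tested genes. Ahr stayed called after rescaling at -0.19 (limma adjusted p 0.00177), but on the deposited scale its call was lost without 0 h replicate 2 or without 3 h replicate 2. Arnt, the receptor's partner, was not called at -0.12 (limma adjusted p 0.431), and was called up after rescaling at 0.12 (limma adjusted p 0.012). Arnt2, a partner found mostly in brain, was at -0.28 and was not called on either scale. Nqo1, a quinone reductase under AHR and NRF2, had 286, 274 and 313 scaled reads at 3 h, against 211, 249.5 and 222 at 0 h. It missed the threshold at 0.35 (limma adjusted p 0.0561) and passed it after rescaling at 0.59 (limma adjusted p 1.4e-05). The other 4 listed genes, Cyp1a2, Aldh3a1, Ugt1a6a and Ugt1a6b, lay below the minimum, with no library above 4.73 scaled reads. Of 10 cofactors and neighbours of the pathway, none was called up and 3 were called down, the same split as after rescaling. Over all tested genes 0.636% were called up and 13.5% down (4.98% and 8.13% rescaled), so this small list cannot be set apart from them. The 3 were Rb1 (-0.42, -0.18 rescaled), which binds cell cycle factors, and the coactivators Ncoa1 (-0.41, -0.17 rescaled) and Ncoa3 (-0.37, -0.13 rescaled). Each of the 3 calls was lost without 0 h replicate 2 or without 3 h replicate 2 on the deposited scale.

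AHR with ARNT is known to bind the letters GCGTG, and the promoters of the strongest responders are shown for that reason, with each GCGTG or its reverse complement CACGC in capitals. The sequences are from RefSeq (GRCm38.p6), 250 bases before to 50 after the gene start, written 5′ to 3′ on the gene's strand. The RefSeq start of Cyp1a1 lies 9685 bases inside the deposited unit whose reads are given above, and that of Cyp1b1 20 bases from the start of its unit.
Cyp1a1 promoter, chr9:57697363-57697662, plus strand: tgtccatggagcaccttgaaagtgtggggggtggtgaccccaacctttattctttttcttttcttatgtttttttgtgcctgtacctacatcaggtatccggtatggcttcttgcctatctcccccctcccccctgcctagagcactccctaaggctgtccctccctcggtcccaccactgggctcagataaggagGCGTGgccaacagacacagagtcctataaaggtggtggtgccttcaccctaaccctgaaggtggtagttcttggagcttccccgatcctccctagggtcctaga
Cyp1b1 promoter, chr17:79715012-79715311, minus strand: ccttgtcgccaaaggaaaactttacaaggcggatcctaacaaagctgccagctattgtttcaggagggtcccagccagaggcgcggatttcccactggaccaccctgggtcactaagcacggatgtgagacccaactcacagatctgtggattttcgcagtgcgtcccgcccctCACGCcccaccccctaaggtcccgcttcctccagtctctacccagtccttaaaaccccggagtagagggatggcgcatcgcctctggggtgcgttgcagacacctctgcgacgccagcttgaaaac
Ahrr promoter, chr13:74292282-74292581, minus strand: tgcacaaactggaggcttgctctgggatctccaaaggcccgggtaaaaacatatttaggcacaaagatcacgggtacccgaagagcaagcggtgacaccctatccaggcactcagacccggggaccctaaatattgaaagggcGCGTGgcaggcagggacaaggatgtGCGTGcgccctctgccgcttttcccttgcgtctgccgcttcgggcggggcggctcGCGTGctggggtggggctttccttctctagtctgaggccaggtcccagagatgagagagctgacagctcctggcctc
The Ahrr window holds 3 copies, at 107, 82 and 27 bases before the start, and the Cyp1a1 and Cyp1b1 windows 1 each, at 54 and 76 bases before it. All 4 list members called up had a match, as did Arnt, while the windows of Nqo1 and Arnt2 had none and Ahr had no window in the table. The letters are common: 50.7% of the 11404 tested genes with a window and 32.4% of all 32851 windows hold them on either strand, and 27 of 78 windows of genes called up did. A match is a description of the letters and not a measured site.

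The AHR genes also differed in time course from most of the rising genes. Over 0, 3, 12, 24 and 48 h the means of Cyp1a1 were 6.09, 134, 16.8, 22.9 and 24.2 scaled reads. Ahrr averaged 46.3, 143, 67.5, 50.0 and 48.3 at the same times, and was back near its level at 0 h by 24 h. Cyp1b1 averaged 35.9, 222, 67.2, 88.7 and 109, so it rose again after 12 h. Tiparp averaged 2660, 4222, 2706, 2188 and 2948. Cyp1a1 and Cyp1b1 stayed above their means at 0 h up to 48 h. Of the 97 genes called up at 3 h, 7 had their highest mean at 3 h, and these were Cyp1a1, Cyp1b1, Ahrr, Tiparp, Chac1, Ccno and Grip2, of which the last 3 lost their call at 3 h without most single libraries. The other 90 had their highest mean at 12 h (26 genes), 24 h (23) or 48 h (41). After rescaling, 10 of the 97 were highest at 3 h. These are orders of levels, with no test of their own. Genes could pass the minimum mean of 10 through later times, and 60 of the 97 averaged 10 or more at 0 h. The share with a later peak is thus in part set by that minimum.

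**Figure D1:**
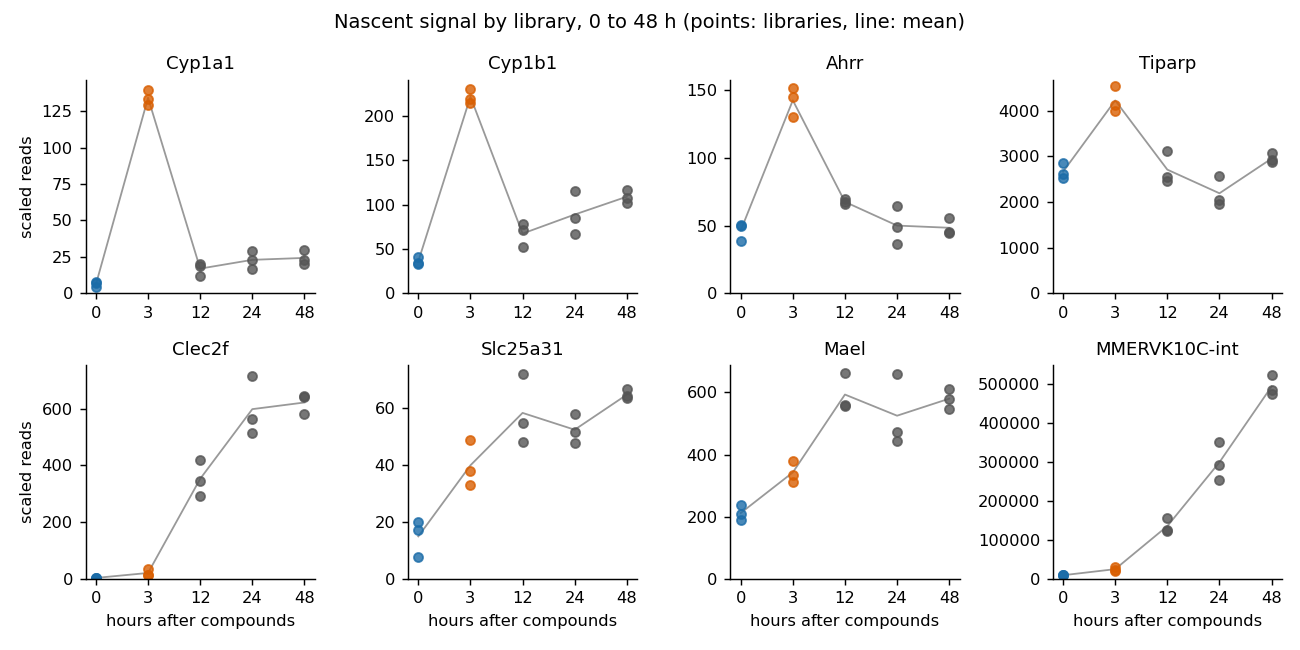
Scaled reads in each library (points, 3 a time) and their mean (line) at 0, 3, 12, 24 and 48 h for 7 genes and the repeat family MMERVK10C-int, each on its own linear axis from 0, with the times evenly spaced (3 h orange, 0 h blue, later times grey). The 4 AHR genes in the top row are highest at 3 h, where Cyp1a1 averaged 134 scaled reads, while Clec2f averaged 20.6 at 3 h and 622 at 48 h.

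Beside Cyp1b1 and the germline gene Mov10l1, the rises taken by the naming rule were in genes that averaged at most 20.0 scaled reads at 0 h. That rule asks for a mean over all 15 libraries above 71.3 scaled reads, which these genes reached only through 12 to 48 h. Rdh16, for example, averaged 4.27 at 3 h and 210 at 48 h, so their choice used later levels. The largest of these rises was that of Clec2f, one of the C-type lectin-like genes clustered on chromosome 6, where Clec2g also lies. Clec2f (chromosome 6, 129014112-129020527, plus strand) had 33.8, 14.0 and 14.0 scaled reads at 3 h, against 3.25, 3.33 and 2.57 at 0 h, and Clec2g (chromosome 6, 128934381-128984707, plus strand) had 87.8, 49.0 and 53.5 scaled reads at 3 h, against 20.3, 21.6 and 18.0 at 0 h. Replicate 1 was the highest at 3 h in both, and even the lowest library at 3 h lay above the highest at 0 h. Their log2 changes were 2.30 (SE 0.15, adjusted p 2.63e-46 in limma) and 1.57 (SE 0.13, adjusted p 1.9e-29 in limma). Bglap3, a relative of the bone protein osteocalcin, had 50.0, 41.4 and 59.7 scaled reads at 3 h, against 12.2, 11.6 and 15.4 at 0 h, a change of 1.86 (SE 0.17, adjusted p 1.89e-24 in limma). Mmp1b, a collagenase gene, had 24.3, 9.54 and 18.6 scaled reads at 3 h, against 1.63, 6.65 and 3.43 at 0 h and changed by 1.96 (SE 0.16, adjusted p 2.1e-29 in limma). Cd209c, a lectin gene, changed by 1.50, Clvs1 by 1.05 and Akr1c21, an aldo-keto reductase, by 0.94, all with groups that did not overlap. Rdh16, a retinol dehydrogenase, rested on 18 reads over the 3 libraries at 3 h and 2 at 0 h, and their scaled levels stand in a ratio of 7.46 (95% Clopper-Pearson interval 1.79 to 66.3). Intervals of this kind cover counting error only.

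Genes of the 2-cell-like state were mostly not called. Their counts are read against 0.636% of all tested genes called up and 13.5% down, with a median of -0.24. Of 15 tested of 37 listed, 3 were called up and 1 down, with a median of 0.09. Only 5 of the 15 averaged 10 scaled reads or more at 0 h, and none of these was called up, so the 3 passed the minimum through their levels from 3 h on; edgeR and DESeq2 called 1 member up each. Zscan4c, a marker of that state, had 16.2, 9.54 and 9.31 scaled reads at 3 h, against 6.50, 1.66 and 7.72 at 0 h, a change of 1.14 (SE 0.22, adjusted p 3.91e-05 in limma) that was lost without 0 h replicate 2. Zscan4b, its neighbour in a cluster of near-identical copies, changed by 0.88, and Usp17la, from a family of deubiquitinases, by 1.03 on at most 5.09 scaled reads a library. Both also lost their call without 0 h replicate 2. The member called down was Zfp750 (-0.44, -0.20 rescaled and not called). Reads of such copies can be split between them, so single members are uncertain. Dux, the factor that can switch the state on, was below the minimum, with 0.775 to 1.35 scaled reads at 3 h and 0.813 to 4.16 at 0 h.

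On the deposited scale, germline genes were the other named group with several members called up. Of 20 listed, 18 were tested, 10 were called up (13 after rescaling) and none down, where 0.636% of all tested genes were called up (4.98% rescaled), and the median log2 change was 0.44 against -0.24 over all tested genes. They include the synaptonemal complex genes Sycp1 and Sycp2, the meiotic cohesin gene Stag3, the RNA-binding genes Dazl and Ddx4, and the piRNA factors Mael and Mov10l1. Slc25a31, a nucleotide carrier of sperm mitochondria, had 37.8, 33.1 and 48.9 scaled reads at 3 h, against 17.1, 20.0 and 7.72 at 0 h, a change of 1.44 (SE 0.20, adjusted p 3.12e-10 in limma). Mov10l1, an RNA helicase of the piRNA pathway (chromosome 15, 88982994-89055152, plus strand), had 276, 262 and 295 scaled reads at 3 h, against 146, 146 and 155 at 0 h, a change of 0.89 (SE 0.13, adjusted p 1.37e-08 in limma). Mael had 336, 312 and 379 scaled reads at 3 h, against 189, 238 and 208 at 0 h, a change of 0.69 (SE 0.13, adjusted p 2.49e-05 in limma). In each of the 3 genes all libraries at 3 h lay above all at 0 h. Dazl had 179.6, 143 and 175 scaled reads at 3 h, against 105, 109.8 and 93.4 at 0 h (0.68), and Ddx4 had 536, 466 and 593 scaled reads at 3 h, against 352, 392 and 362 at 0 h (0.52). Sycp2 (0.76), Taf7l (0.63), Tuba3a (0.52), Sycp1 (0.44) and Stag3 (0.43) were called as well, and each of these 5 lost its call without at least 1 library on the deposited scale. Of the 8 tested members not called, 3 passed after rescaling. The count called up was 6 without 0 h replicate 1 and 8 or 9 without any other of the 6 libraries.

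The E-box CACGTG is the letters that MAX with MGA, parts of a complex known for silencing germline genes, bind. It reads the same on both strands and shares the letters CGTG with the AHR motif without containing it. Promoter windows of 3 germline genes called up are shown with it in capitals, from the same RefSeq table.
Slc25a31 promoter, chr3:40708621-40708920, plus strand: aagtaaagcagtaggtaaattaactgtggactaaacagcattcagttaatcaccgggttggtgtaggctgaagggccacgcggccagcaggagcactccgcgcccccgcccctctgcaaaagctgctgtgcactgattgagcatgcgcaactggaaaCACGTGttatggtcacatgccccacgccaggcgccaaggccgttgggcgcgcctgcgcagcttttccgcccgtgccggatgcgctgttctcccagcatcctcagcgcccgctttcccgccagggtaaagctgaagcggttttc
Mael promoter, chr1:166238695-166238994, minus strand: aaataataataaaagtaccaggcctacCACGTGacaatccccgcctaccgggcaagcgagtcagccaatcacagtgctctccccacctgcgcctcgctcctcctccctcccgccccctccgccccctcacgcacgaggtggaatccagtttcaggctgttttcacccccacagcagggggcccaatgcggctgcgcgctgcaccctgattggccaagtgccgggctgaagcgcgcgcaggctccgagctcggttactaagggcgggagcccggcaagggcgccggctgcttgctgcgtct
Ddx4 promoter, chr13:112652261-112652560, minus strand: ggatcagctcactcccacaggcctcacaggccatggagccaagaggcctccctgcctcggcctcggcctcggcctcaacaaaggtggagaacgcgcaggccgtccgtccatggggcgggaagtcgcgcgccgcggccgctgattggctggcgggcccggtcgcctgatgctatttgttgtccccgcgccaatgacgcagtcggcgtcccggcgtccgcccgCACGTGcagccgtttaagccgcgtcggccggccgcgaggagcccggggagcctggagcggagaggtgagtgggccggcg
The match lies 93 bases before the start in Slc25a31, 223 in Mael and 29 in Ddx4. It was present in 7 of 10 windows of list members called up and in 5 of 8 of those not called up, against 10.2% of the 11404 tested genes with a window and 7.15% of all windows. Among all genes called up, 12 of 78 windows held it.

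Stress pathways that added compounds could set off gave few calls on the deposited scale, where 0.636% of all genes were called up, and more after rescaling, where 4.98% were. None of 10 heat shock genes, 13 NRF2 targets, 10 sterol synthesis genes, 7 parts of cereblon and cullin ubiquitin ligases or 4 metallothionein and metal genes was called in either direction. Their medians, -0.23, -0.22, -0.12, -0.25 and -0.08, are read against -0.24 over all genes. In limma at an unadjusted p under 0.05, the same lists had 5, 4, 0, 4 and 1 genes lower at 3 h and 0, 0, 0, 0 and 1 higher; edgeR called 1 metal gene up, as DESeq2 did, and DESeq2 also 1 NRF2 target down. After rescaling the heat shock genes still gave no call, and 4 NRF2 targets, 6 sterol genes, 1 ligase part and 2 metal genes were called up. Of 16 genes of the integrated stress and unfolded protein responses, 1 was called up and none down. After rescaling 8 were called up, and 7 or 8 with any 1 of the 6 libraries left out. Chac1, a glutathione-degrading enzyme of the ATF4 pathway, had 406, 371 and 419.5 scaled reads at 3 h, against 301, 347 and 286 at 0 h, a change of 0.36 (SE 0.13, adjusted p 0.0484 in limma), and leaving out any of the 6 libraries ended this call. Vldlr, a lipoprotein receptor (0.33, 0.57 rescaled), Herpud1, an endoplasmic reticulum protein (0.15, 0.38 rescaled), and Ddit3, a stress transcription factor (0.09, 0.32 rescaled), passed only after rescaling. The interferon and RNA-sensing list had 1 of 10 genes called down, the RNA sensor Ddx58 (-0.38, -0.14 rescaled), 3 without 3 h replicate 3, and none after rescaling.

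**Figure D2:**
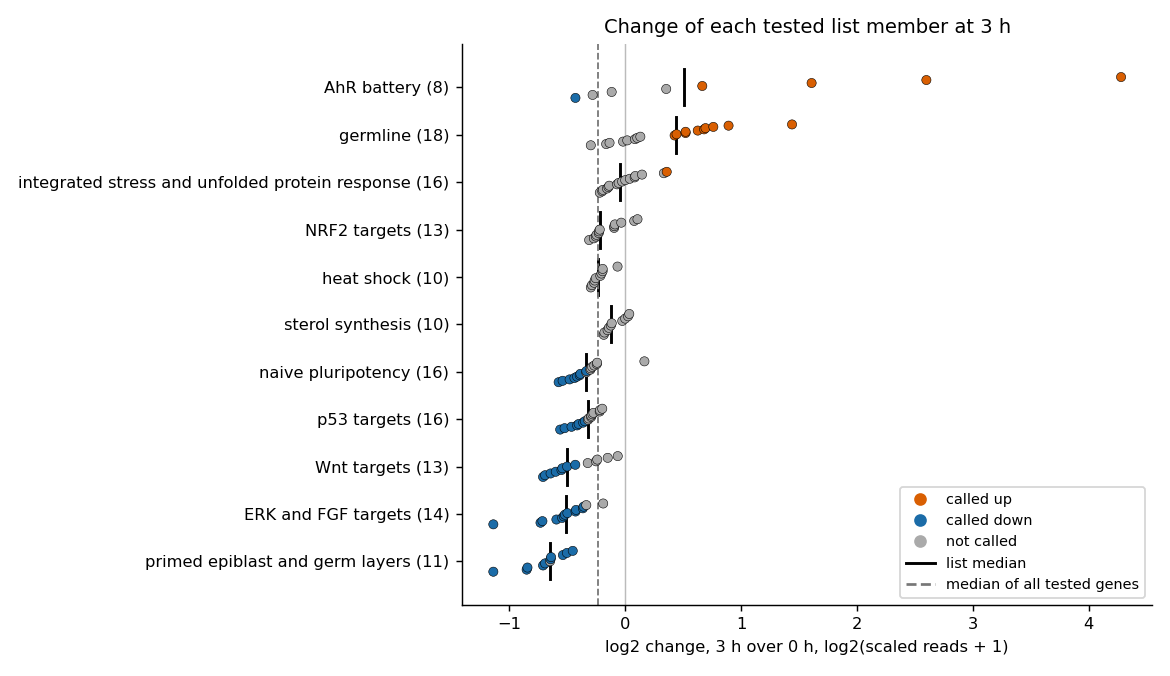
Log2 change at 3 h over 0 h, on the log2(scaled reads + 1) scale, of each tested member (point) of 11 gene lists, with the list median (bar), calls up in orange and down in blue, and the median of all tested genes (-0.24, dashed). The AHR and germline lists reach 4.28 and 1.44, and the ERK and epiblast lists reach -1.14.

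Fgf5 had the largest fall among the 12 genes that the naming rule took, which averaged 78.9 to 752 scaled reads at 0 h. Fgf5, a growth factor that marks the primed epiblast (chromosome 5, 98254184-98277033, plus strand), had 132, 121 and 155 scaled reads at 3 h, against 282, 318 and 297 at 0 h, a change of -1.14 (SE 0.15, adjusted p 1.2e-11 in limma) and of -0.90 after rescaling. Myc, the growth regulator (chromosome 15, 61985341-61990361, plus strand), had 105, 104 and 119 scaled reads at 3 h, against 204, 205 and 199.7 at 0 h, a change of -0.89 (SE 0.15, adjusted p 6.87e-07 in limma) and of -0.65 rescaled. In both genes the groups were far apart and the libraries within a group close. Groups without overlap in this direction were common on the deposited scale, in 8166 of 15261 tested genes. Bcl11a, a transcription factor of blood and nerve cells, had 364, 391 and 453 scaled reads at 3 h, against 713, 807 and 737 at 0 h (-0.90, -0.67 rescaled). The other genes that the rule named as falling were Enpp2, which makes a lipid signal (-0.95), Edn1, the peptide endothelin (-0.94), Kynu, of tryptophan breakdown (-0.92), Ccnd2, a cyclin (-0.87), Mpped1 (-0.86), Cped1 (-0.86), the cadherins Cdh12 (-0.85) and Cdh9 (-0.85) and Nlrc4, an inflammasome sensor (-0.85). All 12 were also called down after rescaling, where their changes ran from -0.90 to -0.62, and none lost its call without any of the 6 libraries.

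Most listed targets of FGF and ERK signalling fell. The counts below are read against 13.5% of all tested genes (8.13% rescaled) called down. Of 14 tested, 12 were called down and none up, 10 of them also after rescaling, and the median was -0.51 (-0.27 rescaled). Spry4, an inhibitor that the pathway itself induces, had 1209, 1092 and 1273 scaled reads at 3 h, against 1940.3, 2086 and 1896 at 0 h (-0.73, -0.49 rescaled). Dusp4 (-0.59, -0.36 rescaled) and Dusp6 (-0.52, -0.28 rescaled), phosphatases that shut ERK off, and Etv4 (-0.54, -0.31 rescaled) and Etv5 (-0.53, -0.29 rescaled), transcription factors downstream of it, were called as well. In the list of primed epiblast and germ layer genes, 10 of 11 were called down, 6 after rescaling. Otx2, an epiblast transcription factor, had 141, 153 and 179.9 scaled reads at 3 h, against 282, 290.3 and 279 at 0 h (-0.85, -0.61 rescaled), and Pax6 (-0.64, -0.40 rescaled), Lef1 (-0.71, -0.47 rescaled) and Wnt3 (-0.69, -0.45 rescaled) followed it. Fgf5 stands in both lists, and Lef1 and Wnt3 also in the list of Wnt targets. Of 13 Wnt targets 8 were called down (4 rescaled), among them Axin2, a brake on the pathway (-0.54, -0.30 rescaled). Of 13 Nodal, Activin and BMP targets 7 were called down and 1 up (6 and 2 rescaled), with Id3 (-0.64, -0.40 rescaled) and Id2 (-0.73, -0.49 rescaled), inhibitors of helix-loop-helix factors, lowest in adjusted p. Without 0 h replicate 2 the ERK, epiblast, Wnt and Nodal lists had 7, 6, 3 and 2 genes called down and without 3 h replicate 2 they had 6, 7, 3 and 2, while after rescaling they kept at least 9, 6, 4 and 5 calls with any 1 of the 6 libraries left out. Bambi, a decoy receptor of that pathway, was the member called up, at 0.37, and on the deposited scale leaving out any of the 6 libraries ended this call. After rescaling its change was 0.60 (limma adjusted p 4.93e-10), and this call was kept without any 1 of the 6 libraries.

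Pluripotency genes fell in part, in lists read against the same shares of 13.5% of all tested genes (8.13% rescaled). Of 16 naive pluripotency genes 8 were called down and none up, 7 down and 1 up after rescaling, with a median of -0.33 (-0.10 rescaled). Pou5f1, the core factor of stem cells, had 637, 632 and 746 scaled reads at 3 h, against 969, 1006 and 946 at 0 h (-0.54, -0.30 rescaled). Its groups were apart, as in this direction were those of 8166 of 15261 tested genes on the deposited scale. Prdm14 (-0.57, -0.34 rescaled) and Nanog (-0.48, -0.24 rescaled) were called too and lost the call without 0 h replicate 2. In the trophectoderm list 3 of 8 genes were called down, with Tead4, a transcription factor (-0.62, -0.38 rescaled), and in the primitive endoderm list 4 of 8 (2 and 3 rescaled), with Cubn (-0.76, -0.52 rescaled), an uptake receptor. Of 16 p53 targets 7 were called down (5 rescaled), such as Pmaip1, a cell death gene (-0.52, -0.28 rescaled). Of 18 immediate early genes 4 were called down (3 rescaled), a share near that of all genes, among them Myc and Nr4a1, an orphan receptor (-0.55, -0.32 rescaled). Among 28 H3K9 methyltransferases and partners, 7 were called down and none up (6 and 3 rescaled). Those were led by DNA methylation genes, Dnmt3l, a cofactor (-0.57, -0.34 rescaled), Dnmt3b (-0.54, -0.30 rescaled) and Dnmt3a (-0.44, -0.20 rescaled), with Atrx, a chromatin remodeller (-0.44, -0.20 rescaled). In the order given, these 6 lists had 1, 1, 0, 1, 2 and 2 genes called down when 0 h replicate 2 was left out and 3, 2, 0, 2, 2 and 2 when 3 h replicate 2 was, and after rescaling at least 5, 1, 0, 4, 1 and 5 with any 1 of the 6 libraries left out. Cubn, Dnmt3a and Atrx were among the calls lost without the first of these libraries and also without the second, and without 3 h replicate 3 the H3K9 list had 11 called down.

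Genes of bulk machinery gave few calls on the deposited scale. The counts in this paragraph are read against 0.636% of all tested genes called up and 13.5% down (4.98% and 8.13% rescaled). Of 93 cytosolic ribosomal protein genes limma called none on the deposited scale (15 lower and none higher at an unadjusted p under 0.05, edgeR none, DESeq2 1 down) and 2 up after rescaling, with medians of -0.21 and 0.03. Of 66 replication-dependent histone genes 1 was called up and 2 down (2 and none rescaled, 10 down without 3 h replicate 3), and limma called none of 5 small structural RNA genes (3 lower at an unadjusted p under 0.05, none by edgeR or DESeq2, 2 called down without 3 h replicate 3). Among 321 genes with Zfp symbols, many of which encode KRAB zinc finger repressors, 1 was called up and 24 down on the deposited scale (4 down with 0 h replicate 2 left out and 44 with 3 h replicate 3 left out), and 21 up and 16 down after rescaling. Gene length moved with the calls. After rescaling, 727 of the 3815 longest genes (median length 113 kb) were called down and 206 up, against 72 down and 107 up of the 3816 shortest (median 4.87 kb). The median changes of these groups differed little, at -0.04 and 0.02 rescaled, and longer genes also carry more reads; the part of length or reads in the calls was not tested.

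The miR-302 cluster, a stem cell microRNA locus on chromosome 3, was looked at after its values were seen. Its mature 3′ strands are shown from RefSeq (GRCm38.p6, chromosome 3), with the seed, bases 2 to 8, in capitals, because the b and d members share 1 seed and c shares it shifted by 1 base.
mmu-miR-302b-3p: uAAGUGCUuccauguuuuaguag
mmu-miR-302c-3p: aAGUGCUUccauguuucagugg
mmu-miR-302d-3p: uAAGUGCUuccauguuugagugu
mmu-miR-367-3p: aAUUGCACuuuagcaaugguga
The values are nascent reads over each hairpin gene and do not measure the mature RNA. Mir302b had 27.0, 34.4 and 39.5 scaled reads at 3 h, against 60.2, 65.7 and 57.4 at 0 h, a change of -0.86 (SE 0.21, adjusted p 0.00144 in limma), and Mir302a had 24.3, 31.2 and 26.4 scaled reads at 3 h, against 49.6, 49.1 and 60.9 at 0 h, a change of -0.94 (SE 0.22, adjusted p 8.55e-04 in limma). Mir302d (-0.72, -0.49 rescaled) and Mir367 (-0.71, -0.48 rescaled) were called down and lost the call without at least 5 of the 6 libraries, and Mir302c (-0.66, limma adjusted p 0.0608) was not called. After rescaling Mir302a and Mir302b stayed called at -0.71 and -0.62. The cluster lies inside Larp7 on the opposite strand, and Larp7 fell too (-0.57, -0.34 rescaled); no source states whether counting used the strand, so reads of the 2 strands cannot be told apart.

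Among repeats, 12 families rose at 3 h, all of the ERVK group of retroviruses. Of 774 tested families (all copies of 1 name summed), 12 were called up (1.55%) and 15 down (1.94%). After rescaling 39 were up (5.04%), 32 of them ERVK, and 1 down (0.129%). Most ERVK families were not called: of 255 tested, 12 were up and 6 down, with a median change of -0.19 (0.05 rescaled). MMERVK10C-int, the internal part of that retrovirus, had 30714, 21191 and 22542 scaled reads at 3 h, against 8871, 9687 and 8912 at 0 h. Replicate 1 was highest, and each library at 3 h lay above each at 0 h, with a log2 change of 1.42 (SE 0.12, adjusted p 6.46e-29 in limma). RLTR10C, a long terminal repeat of the same group, had 1882, 1411 and 1611 scaled reads at 3 h, against 680.4, 746 and 718 at 0 h, a change of 1.18 (SE 0.12, adjusted p 6.5e-21 in limma). IAPEy-int, the internal part of an IAP relative with an envelope gene, had 427, 350.0 and 383 scaled reads at 3 h, against 160.1, 172 and 165 at 0 h, a change of 1.21 (SE 0.13, adjusted p 1.64e-18 in limma). All 12 families had every library at 3 h above every library at 0 h, as had 2.45% of tested families.

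The other families called up were smaller. ERVB4_1B-I_MM-int changed by 0.99, RLTR44D by 1.03 and MMERVK10D3_I-int by 0.82. From the IAP group came IAPLTR4 (0.67), IAP1-MM_LTR (0.66), IAPLTR3-int (0.65) and IAP1-MM_I-int (0.64), with IAPEY_LTR (0.50) and RLTR10B2 (0.44) weakest. IAPEY_LTR lost its call without any of the 6 libraries, RLTR10B2 without 5 of them, IAPLTR4 without 4, and IAP1-MM_LTR and IAPLTR3-int without 2. IAPEz-int, the main IAP internal part, had 5323, 4429 and 5155 scaled reads at 3 h, against 4660.2, 4934 and 4844 at 0 h. Its groups overlapped, and its change of 0.04 (limma adjusted p 0.787) became a call of 0.28 (limma adjusted p 3.66e-05) after rescaling. The 27 families that were called up only after rescaling held 20 ERVK and 5 ERV1 families, among them MuLV-int and MMVL30-int. Neither the LINE family L1Md_T (-0.16, 0.07 rescaled), nor the SINE family B2_Mm2 (-0.32, -0.08 rescaled), nor MERVL-int, the retrovirus of the 2-cell state (-0.26, -0.02 rescaled) was called on either scale.

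**Figure D3:**
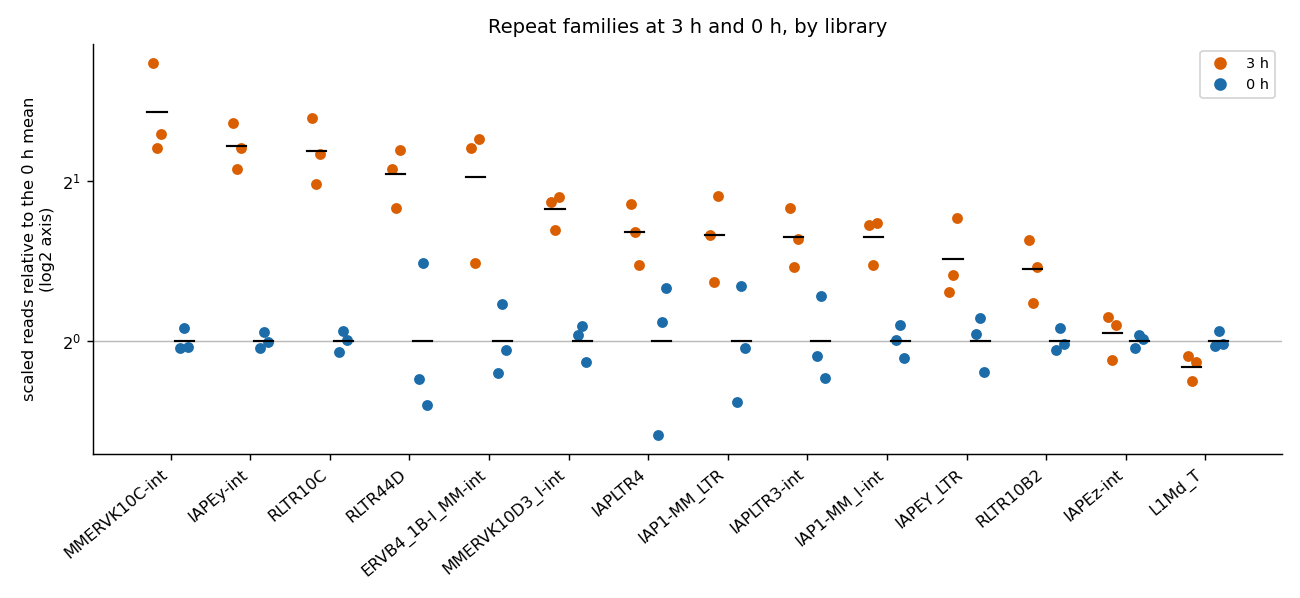
Summed scaled reads of 14 repeat families in each library at 3 h (orange, left) and at 0 h (blue, right), divided by the family's mean at 0 h, on a log2 axis, with bars at the group means. The 12 families called up, from MMERVK10C-int to RLTR10B2, do not overlap between the groups, while IAPEz-int does and L1Md_T lies below its level at 0 h.

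The 15 families called down were 6 ERVK, 2 ERVL and 2 ERVL-MaLR families and 1 each of the ERV1, L1, B2, TcMar-Tigger and hAT-Blackjack groups. MER63C, a DNA transposon of the last group, fell to 8.78, 8.91 and 7.75 scaled reads at 3 h, against 16.3, 19.1 and 19.7 at 0 h, a change of -1.03 (SE 0.30, adjusted p 0.0381 in limma), and the call ended without any of the 6 libraries. LTR33A (-0.90, -0.67 rescaled), MLT1-int (-0.84, -0.61 rescaled), MLT2F (-0.77, -0.54 rescaled), the ERVK family RLTR20B4_MM (-0.68, -0.45 rescaled) and the Tigger13a transposon (-0.63, -0.40 rescaled) followed. The other ERVK families called down were ERVB3_1-I_MM-int (-0.60, -0.36 rescaled), MLTR18C_MM (-0.58, -0.35 rescaled), RLTR26 (-0.51, -0.27 rescaled), RLTR11C_MM (-0.50, -0.26 rescaled) and RMER16B2 (-0.47, -0.23 rescaled). Beside LTR33A, each family named in these sentences lost its call without at least 3 of the 6 libraries. Of the 15, LTR33A was the family still called after rescaling (limma adjusted p 0.0457), and it lost its call on the deposited scale without 0 h replicate 3 or 3 h replicate 2. Apart from B2_Mm1a they averaged 18.4 to 309.8 scaled reads at 0 h. B2_Mm1a is a SINE family with 21636, 20950.2 and 21464 scaled reads at 3 h, against 25801, 28729 and 29037 at 0 h (-0.38, -0.14 rescaled and not called), and its call ended without any of the 6 libraries.

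Single copies show how the rise of a family was spread. Of 13519 tested copies, 338 were called up (2.5%) and 36 down (0.266%), 473 (3.5%) and 15 (0.111%) after rescaling. With only the 6 libraries of 3 h and 0 h in the fit 8 were called up and 3 down, so the copy calls lean on the spread estimated over all 15 libraries. Copies could also pass the minimum through later times: 9965 averaged 10 or more at 0 h, of which 107 were called up. Of the 338, 264 belonged to MMERVK10 or RLTR10 families, which held 889 of the tested copies. MMERVK10C-int had 610 tested copies of 1525, with 206 called up and none down, and a median change of 1.27 against -0.18 over all tested copies. Its copies that already averaged 10 scaled reads or more at 0 h numbered 142, and 92 of them were called up. Many copies gained but the gains were uneven: of 1066 copies with any read in the 6 libraries, 841 had the higher mean at 3 h and 225 the lower, and the 29 with the largest gains made up 50% of the summed gain, 9.87% of it from 1 copy. RLTR10C had 38 of 174 tested copies called up, and 7 of the 11 that averaged 10 or more at 0 h. IAPEz-int had 7 of 666, none of them among its 69 copies that averaged 10 or more at 0 h, and 1227 of its copies had the higher mean at 3 h and 1028 the lower. ERVB4_1B-I_MM-int and RLTR44D had 1 copy each called up, and 1 copy held 54.3% and 71.7% of their summed gains.

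The copies with the largest rise were 5 of MMERVK10C-int and 1 of ETnERV-int. The copy at chromosome 5, 15000001-15004545, minus strand had 141, 44.5 and 40.3 scaled reads at 3 h, against 7.32, 1.66 and 0 at 0 h, a change of 4.52 (SE 0.57, adjusted p 2.75e-04 in limma). The copy at chromosome 8, 4682432-4687356, minus strand had no read at 0 h and 83.1, 9.54 and 12.4 scaled reads at 3 h, which is at least 42.5-fold higher when 3 reads are taken as the limit that a count of 0 in the whole group allows. Both were highest in replicate 1, and the libraries at 3 h differed widely among themselves. The copies at chromosome 7, 120557475-120558411, minus strand and at chromosome 6, 147461228-147463515, plus strand changed by 4.42 and 4.20. The copy at chromosome 12, 67458581-67458883, minus strand rested on 112 reads at 3 h and 2 at 0 h, 46.4-fold by scaled count (counting interval 12.6 to 388). The ETnERV-int copy at chromosome 5, 59949562-59956090, minus strand had 116 reads at 3 h and 3 at 0 h, 32.0-fold (10.7 to 158). None of these 6 lies in a gene, and the nearest gene to any of them is 4933402J10Rik, 7029 bp from the ETnERV-int copy. The 3 copies that fell most were an RLTR4_Mm repeat at chromosome 4, 146511253-146511475, plus strand, inside Gm13247, whose call was lost without 5 of the 6 libraries, and MMETn-int copies at chromosome 6, 123642925-123646081, plus strand and chromosome 16, 20906097-20907351, minus strand, with changes of -2.93, -2.27 and -2.26 on few reads. No source used here says how reads with several positions were placed, so a value of 1 copy can hold reads of its near-identical relatives.

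Non-coding units, stretches of transcription that the authors' table lists apart from annotated genes, changed in both directions. Of 15730 tested, 1217 were called up (7.74%) and 1268 down (8.06%), and after rescaling 1730 (11%) and 297 (1.89%). Units that cover at least 100 bases of an MMERVK10 or RLTR10 copy rose most often: 369 of 579 were called up and 1 down, with a median change of 1.10 against -0.21 over all units. Units over other ERVK copies had 332 of 1994 called up and 131 down. Of units over other LTR copies 77 of 1070 were up and 96 down, and of those elsewhere between genes 356 of 5836 were up and 549 down. Units tied to genes seldom rose: 62 of 2731 antisense units inside genes were called up and 273 down, 18 and 77 of 770 downstream units, and 3 and 141 of 2748 units that start divergent from a gene start. A unit could pass the minimum through its level at later times alone, so the same counts were taken over units that averaged 10 or more at 0 h. Of all 12653 such units, 387 were called up (3.06%) and 1232 down, with a median of -0.26. Over MMERVK10 or RLTR10, 113 of 209 were up and 1 down. Over other ERVK, 103 of 960 were up but 116 down, with a median of -0.17, so in this subset falls were as many as rises. Of 2685 divergent units, 1 was called up and 141 down.

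**Figure D4:**
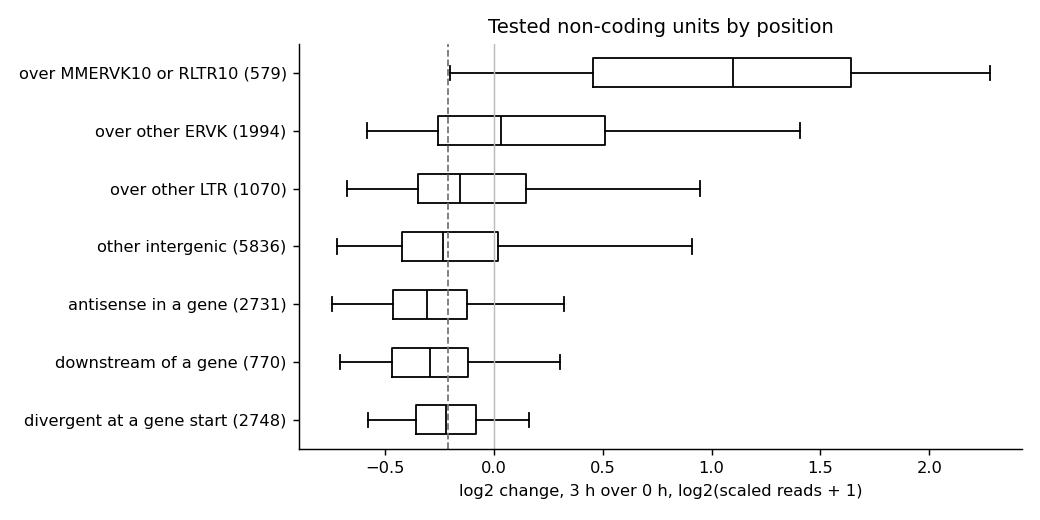
Log2 change at 3 h over 0 h, on the log2(scaled reads + 1) scale, of tested non-coding units by position, with the number of units in brackets (2 units over Rn45s are not drawn). Boxes span the middle 50% with the median inside, whiskers reach the 5th and 95th percentiles and the dashed line is the median of all units (-0.21); units over MMERVK10 or RLTR10 have a median of 1.10.

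The non-coding units that rose most were long stretches over retroviruses. The unit at chromosome 12, 20866601-20877001, over MMERVK10C-int, had 103, 48.4 and 55.8 scaled reads at 3 h, against 6.50, 4.99 and 7.72 at 0 h, a change of 3.18 (SE 0.18, adjusted p 1.88e-14 in limma). The unit at chromosome 3, 45103201-45146201, over ETnERV2-int, had 65.5, 11.5 and 6.98 scaled reads at 3 h, against 2.44, 0 and 1.71 at 0 h, and that at chromosome 17, 81794401-81806801, over MMERVK10C-int, 21.6, 15.9 and 11.6 scaled reads at 3 h, against 2.44, 0 and 1.71 at 0 h. The groups did not overlap in any of the 3, though replicate 1 carried most of the reads of the ETnERV2-int unit at 3 h. The unit at chromosome 7, 44162401-44186601, over ETnERV-int and 1635 bp from the kallikrein gene Klk1b24, rested on 42 reads at 3 h and 1 at 0 h, 34.8-fold by scaled count (counting interval 5.92 to 1407). The unit at chromosome 5, 138004201-138006801, over RLTR10C, had 37 reads at 3 h and 1 at 0 h, 30.7-fold (5.17 to 1244). The remaining unit, at chromosome 13, 52332401-52360601, covers no LTR copy by this rule and changed by 2.95 (SE 0.21, adjusted p 2.32e-12 in limma). Among the 6 that fell most, the largest fall was antisense in the cadherin gene Cdh4 at chromosome 2, 179563601-179571201, which had 14.9, 12.1 and 6.20 scaled reads at 3 h, against 44.7, 31.6 and 31.7 at 0 h, a change of -1.68 (SE 0.27, adjusted p 2.32e-05 in limma). The others were an intergenic unit at chromosome 17, 29435401-29438401 (-1.61), units over MERVL-int at chromosome 7, 98299401-98307601 (-1.55), L1_Mus3 at chromosome 7, 26496201-26501001 (-1.49) and ETnERV-int at chromosome 7, 133529001-133537201 (-1.44), and a unit divergent from Erf, a repressor of ERK target genes, at chromosome 7, 25251001-25253001 (-1.42).

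Few rising genes lay beside a rising repeat copy. Within 10 kb of the gene body, 5 of the 97 genes called up (5.15%) had a copy called up, against 79 of all 15261 tested genes (0.518%), and with 2 kb the counts were 2 and 32 and with 50 kb 11 and 243. After rescaling 25 of 760 genes called up (3.29%) had a copy called up within 10 kb, against 119 of all genes (0.78%). 2010005H15Rik had 206, 98.6 and 111 scaled reads at 3 h, against 13.0, 17.5 and 15.4 at 0 h, a change of 3.03 (SE 0.13, adjusted p 2.37e-119 in limma), and holds an IAP1-MM_LTR copy (chromosome 16, 36231128-36231417) called up on the same strand. Cd209c had 10.8, 7.64 and 10.1 scaled reads at 3 h, against 3.25, 3.33 and 1.71 at 0 h, and 2 MMERVK10C-int copies called up lie 5090 and 5359 bp away. Akr1c21 lies 2257 bp from an RLTR1B-int copy, Fcrl5, an Fc receptor-like gene (0.40), holds an L1Md_F3 copy, and Mep1b, a protease gene (0.39), lies 4654 bp from an RLTR9E copy. A gene's value can include reads of repeats inside it, so for 2010005H15Rik and Fcrl5 gene and copy cannot be told apart. The 11 genes within 50 kb held Clec2f and, of the 10 germline genes called up, Mael alone. None of the 4 AHR genes called up was among them. With 1.59% of all tested genes that near, so few genes cannot set the AHR and germline groups apart.

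Summed over each class, signal was lower at 3 h on the deposited scale. In units of 1000 scaled reads, genes without the ribosomal precursor Rn45s summed to 13574 ± 1118 at 3 h and 16342 ± 918 at 0 h (SD, n = 3 each). Repeat copies summed to 629 ± 42.2 at 3 h and 726 ± 36.3 at 0 h, and non-coding units to 3047 ± 272 at 3 h and 3624 ± 59.6 at 0 h. The groups did not overlap in any of the 3 sums, and the two-sided exact permutation p was 0.1 for each, the smallest that 3 against 3 allows. Copies of MMERVK10 and RLTR10 went against this, with 35.2, 24.7 and 26.6 at 3 h, against 11.7, 12.7 and 11.8 at 0 h, at the same exact p of 0.1. After rescaling, the sum of all repeat copies was 692 ± 25.8 at 3 h and 677 ± 7.61 at 0 h, with an exact p of 0.5.

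The authors' own calls were fewer for genes, though their thresholds were not matched here. The authors' deposited table lists 16 genes up and 4 down at 3 h, and all 20 were called in the same direction here. Of 418 repeat copies that the authors' deposited table lists as up, 287 were called up here, and of its 26 listed as down 3 were called down. Only 13519 of the 319797 deposited copies passed the minimum mean here, so a listed copy without a call may not have been tested. All 509 non-coding units up and 11 down in the authors' deposited table were called in the same direction.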

How the data were processed

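The submitters' processing notes name STAR 2.5.2a, DESeq2 and deepTools, and mm10 (GRCm38) as the genome; the counter, its strand setting, the annotation and the placing of reads with several positions were not named. The authors deposited signal values for 20541 genes, 319797 repeat copies and 42029 non-coding units, which are read counts divided by a size factor of each library, so they were not the plain counts that the design assumed. Whether those factors rest on the yeast spike-in added to each RNA sample is not shown. Whole reads were recovered from at least 99.997% of values above 0 (tolerance 0.05), at 37.1 M to 42.3 M reads over the 15 libraries. Log2(value + 1) was fitted with limma 3.58.1 (R 4.3.3, intensity trend) in all 15 libraries, since 3 against 3 leave few degrees of freedom, over units with a mean of at least 10, with Benjamini-Hochberg adjustment within genes, families, copies or non-coding units. Rescaling divided each library by its median ratio to the mean library over genes. Repeat copies were also summed by family.

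Replicates are biological repeats per the labels. In limma the spread of each unit is drawn towards that of units at a like level. For genes on the deposited scale, SEs and p-values rest almost wholly on that shared spread. They do not show how closely the 3 libraries of 1 gene agree. Clec2f, for example, had an SE of 0.15 on 33.8, 14.0 and 14.0 scaled reads at 3 h. Genes named were, among those called, with an ordinary symbol, above the lowest 25% in mean level and with groups that did not overlap, the 12 with the largest rise and the 12 with the largest fall, with AHR list members and up to 4 members of each other list; like rules took families, copies and non-coding units. One gene that the rule took is not reported here. Other names, such as further germline members, the miR-302 cluster, weaker families and MERVL-int, were chosen after their values were seen. The comparison, its members and all lists were chosen with earlier results of these data known. Promoters came from RefSeq, for 11404 of 15261 tested genes. The fit was tested on simulated data: of 100 genes changed 2-fold it called 91, of 100 families 95, of 100 copies 43 and of 100 non-coding units 73. The simulated reads had the same dispersion in every unit and no library that stood apart, so recovery in the real libraries can differ. Alternatives were edgeR 4.0.16 and DESeq2 1.42.0 on recovered reads, other minimums and pseudocounts, a replicate block and single libraries left out; combinations of rescaling with fewer libraries were chosen after seeing the data.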

Additional observations from a re-analysis of the deposited data

How the results depend on the processing

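Of 123 units named above with a call, 15 lost it under rescaling, 7 with a pseudocount of 4, 11 in edgeR and 9 of 108 in DESeq2, and 19 to 37 when a library was left out. The genes called at 3 h numbered 2150, and 470 to 2993 without single libraries, 6119 (94 up, 6025 down) with only the 6 libraries in the fit and 1263 (73 up, 1190 down) without the trend. Families called numbered 27, 10 to 20 without single libraries, 135 (12 up, 123 down) with only the 6 libraries, 13 without the trend and 11 without a minimum. Copies called numbered 374, 292 to 410 without single libraries, 11 with only the 6 libraries (71 with rescaling as well), 193 with the minimum taken over 3 h and 0 h and 117 over 0 h. Non-coding units called numbered 2485, 1665 to 2258 without single libraries, 1585 (386 up, 1199 down) with the minimum taken over 0 h and 1310 with rescaling and only the 6 libraries. The cause of these shifts was not tested, beyond the change in libraries or units that the alternatives make. Same-numbered libraries of 3 h and 0 h shared no pattern over genes (correlations of same-numbered deviations -0.0036, 0.0012 and 0.0124). These correlations cannot show a shift common to all genes of a library, so whether the numbers pair the libraries was not settled. The replicate block called 3230 genes (104 up, 3126 down), and no named unit lost its call under it.

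Rescaling set the median gene to 0.00028 and the log2 ratio of summed signal to -0.032 for genes and -0.018 for non-coding units, and turned it to 0.032 for repeat copies. Genes called up beside a copy called up were 2 within 2 kb, 11 within 50 kb and 25 after rescaling. Directions turned under rescaling, with or without the replicate block: for L1Md_T to 0.073, Arnt 0.12, Setdb1 0.15, Suv39h1 0.11 and Suv39h2 0.061, and to 0.078, 0.13, 0.16, 0.11 and 0.065 with only the 6 libraries. With 3 h replicates 1 to 3 and then 0 h replicates 1 to 3 left out in turn, the rescaled values were 0.039, 0.062, 0.12, 0.079, 0.063, 0.078 for L1Md_T, 0.17, 0.083, 0.067, 0.080, 0.12, 0.12 for Suv39h1 and 0.072, 0.060, 0.051, 0.054, 0.075, 0.054 for Suv39h2, 0.10 to 0.14 for Arnt and 0.12 to 0.18 for Setdb1. MERVL-int turned to 0.0087 and 0.018 under rescaling without 0 h replicate 2 or 3 h replicate 3, and IAPEz-int to -0.0098 without 3 h replicate 1. At these depths copies and non-coding units with few reads are the least sure: 15 of 100 copies simulated with a change of 1.5-fold were called.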
